A study of Mus musculus with 8 samples.

Results

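MaLR elements (mammalian apparent LTR retrotransposons) are the ERVL-MaLR family of mouse long terminal repeat (LTR) retrotransposons. The 108 subfamilies that the count files place in this family were taken, out of 1153 transposable element subfamilies counted beside 24062 genes. By their names 20 are MT, 29 are ORR1 and 59 are MLT, and 52 are LTRs while 56 are internal parts, marked -int. Each count joins all genomic copies of a subfamily, so neither a copy nor its position can be named. Copy numbers and lengths were not used here, so levels are compared between conditions. Sums, shares and rankings by counts over several subfamilies also depend on copy numbers and lengths.

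MaLR elements are non-autonomous relatives of the ERVL retroviruses: their internal parts code for none of the retroviral proteins, and they depend on enzymes made by other elements. A complete copy has an internal part between a pair of LTRs, whereas a solo LTR is what remains after recombination between them. MT and ORR1 are rodent groups, some of whose LTRs serve as promoters in oocytes and early embryos, while MLT groups are older and shared among mammals. SETDB1 is a histone H3 lysine 9 (H3K9) methyltransferase that silences many endogenous retroviruses in mouse embryonic stem cells (mESCs), and G9a (Ehmt2) and GLP (Ehmt1) deposit H3K9me2, which contributes to silencing of the ERVL element MERVL.

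Poly(A) RNA of 1 mESC line with a conditional Setdb1 allele, #33-6, was sequenced in 4 conditions with 2 biological replicates each. WT mESCs received neither agent. UNC0642-treated mESCs received 2 µM of UNC0642, an inhibitor of the G9a/GLP enzymes, for 3 days, and Setdb1 KO mESCs 800 nM 4-hydroxytamoxifen (4-OHT), which induces the deletion, for 5 days. In the fourth condition, UNC0642-treated Setdb1 KO mESCs, both agents were given: per the labels 800 nM 4-OHT for 2 days and 2 µM UNC0642 for 3 days, though the written protocol has 5 days of 4-OHT. All cells carry the conditional allele and come from the same line, and no library received 4-OHT without the deletion, so an effect of 4-OHT itself and the loss of Setdb1 cannot be told apart. The 4 conditions are written WT, UNC, KO and KO+UNC below, and paired values are those of replicates 1 and 2.

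Library totals were between 11702590 and 26807807 counts, and transposable elements took between 2.77% and 17.1% of them. A subfamily at 3 counts, the floor used here, stood at 0.108 to 0.311 normalised CPM (counts per 1e+06 library counts) depending on the library, which covers counting error only. Setdb1 was at 169 and 127 CPM in replicates 1 and 2 of WT, 130 and 86.3 in UNC, 47.3 and 51.0 in KO, and 61.1 and 34.1 in KO+UNC. Its log2 fold change over WT was -1.59 in KO (edgeR adjusted p = 0.181, and 0.0164 in a fit blocked by replicate number) and -1.64 in KO+UNC (0.0746, and 0.00593 with the block). None of the 12 mESC markers passed the test in the comparisons with WT, and their sums were between 3056 and 6088 CPM in the 8 libraries. Replicates of the same number deviated together over genes between conditions, so results of the fit with the replicate block are given beside the calls they change.

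Summed over the family, MaLR counts were at 2677 and 1912 CPM in replicates 1 and 2 of WT. They were at 3735 and 2451 in UNC, 5824 and 3031 in KO, and 7034 and 4471 in KO+UNC. Both libraries of KO+UNC and both of KO lay above both WT libraries, whereas UNC and WT overlapped. The mean of KO+UNC was 2.51-fold that of WT (5753 ± 1812 against 2295 ± 541 CPM, mean ± SD, n = 2 each). The fold was 3.12 for ORR1, 2.01 for MT and 1.85 for MLT. Over all transposable element counts the MaLR share was smaller in both KO conditions: 7.10% and 7.62% in WT, 6.41% and 7.51% in UNC, 4.38% and 3.64% in KO, and 3.34% and 4.06% in KO+UNC. Since RNA was taken from bulk cultures, more cells with active copies and more RNA per cell cannot be told apart.

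**Figure D1:**
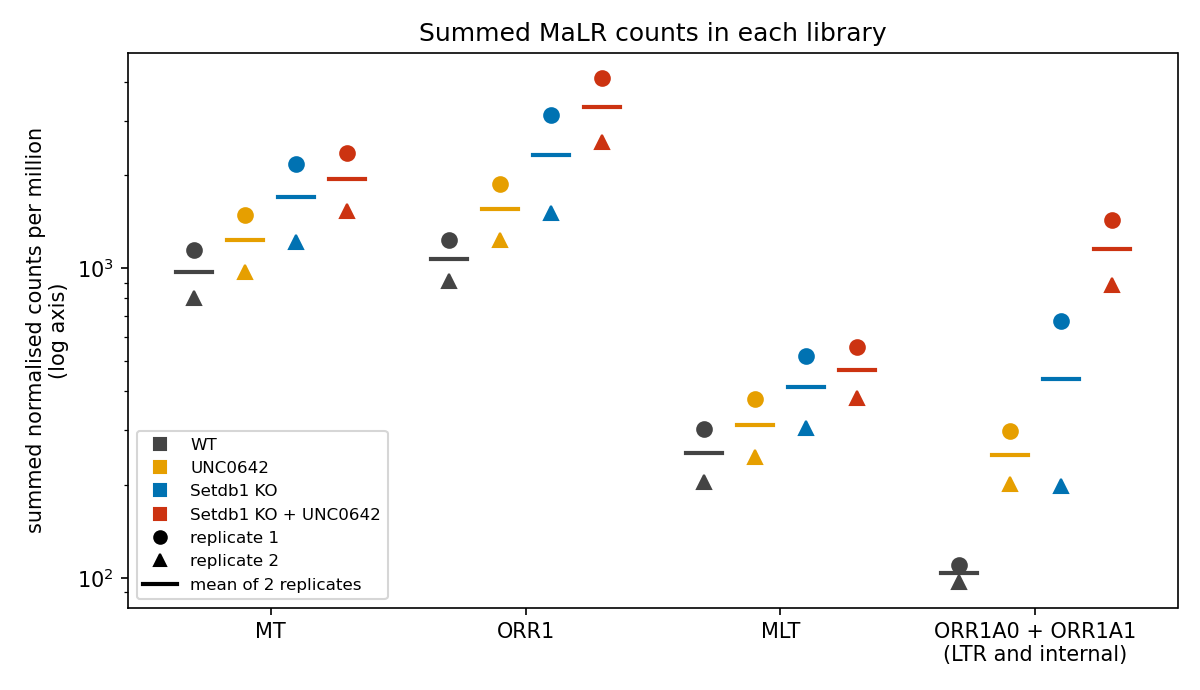
Summed normalised CPM (log axis) of the MT, ORR1 and MLT subfamilies and of ORR1A0 and ORR1A1 (LTRs and internal parts, also counted within ORR1) in each of the 8 libraries, with bars at the mean of 2 replicates. The ORR1A0 and ORR1A1 sum goes from 96.6 and 110 in WT to 886 and 1429 in KO+UNC, and replicate 1 lies above replicate 2 in every group and condition shown.

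A large share of this difference came from a few subfamilies. The LTRs and internal parts of ORR1A0 and ORR1A1 together were at 110 and 96.6 CPM in WT, 298 and 201 in UNC, 678 and 197 in KO and 1429 and 886 in KO+UNC. These 4 subfamilies made up 4.10% and 5.05% of MaLR counts in WT and 20.3% and 19.8% in KO+UNC. Of the 3458 CPM by which the MaLR mean of KO+UNC exceeded that of WT, they gave 30.5%, all ORR1 subfamilies 65.5%, MT 28.3% and MLT 6.22%. The set of 4 was not a planned group. Its members are among those called higher in KO+UNC below, so its large share there is not separate evidence. In KO the same 4 gave 15.7% of an excess of 2133 CPM, and in UNC 18.3% of one of 798 CPM.

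Of the 108 MaLR subfamilies, 87 had enough counts to be tested: all 20 MT, 28 of 29 ORR1 and 39 of 59 MLT. The 21 left out are internal parts, 20 of MLT and ORR1G-int, with at most 19 counts in any library, and MLT1L-int and MLT1O-int had 0 counts in all 8. A subfamily was called at an adjusted p under 0.05, over all 16245 genes and subfamilies tested, and a fold change above 2.

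In KO+UNC, 5 MaLR subfamilies rose over WT and none fell (0.505% of all features fell). All 5 are ORR1A: the LTRs ORR1A0 and ORR1A1 and the internal parts ORR1A0-int, ORR1A1-int and ORR1A3-int. Of all features tested 3.60% were called higher, and of the 932 subfamilies 12.1%, so the share over the whole family, 5 of 87, did not exceed that of subfamilies in general. All 5 calls were lost when either WT library was left out, 2 were kept without replicate 1 of KO+UNC, and with the replicate block 31 MaLR subfamilies were called (18 ORR1, 8 MT and 5 MLT, beside 9.47% of all features and 37.7% of subfamilies).

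The internal part ORR1A1-int had the largest fold change of the family. It was at 21.5 and 14.7 CPM in WT, 63.5 and 33.9 in UNC, 141 and 43.1 in KO and 539 and 309 in KO+UNC. WT libraries were lowest and KO+UNC libraries highest, and the libraries of the 2 single treatments overlapped in between. Its log2 fold change in KO+UNC over WT was 4.55 (SE 0.70, 95% interval 2.97 to 6.14, edgeR adjusted p = 0.00948), the 28th highest of the 932 subfamilies.

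The LTR ORR1A0 was the only one of the 5 in which replicate 2 exceeded replicate 1 in both WT and KO+UNC. It was at 15.2 and 17.6 CPM in WT, 51.9 and 35.7 in UNC, 100.3 and 43.2 in KO and 167 and 208 in KO+UNC. All 6 treated libraries were above both WT libraries. The log2 fold change in KO+UNC over WT was 3.51 (SE 0.52, edgeR adjusted p = 0.00786). Its internal part ORR1A0-int was at 53.2 and 49.1 CPM in WT, 154 and 110 in UNC, 383 and 81.7 in KO and 612 and 277 in KO+UNC. The 2 KO libraries stood far apart, and the lower one was below both UNC libraries. Its log2 fold change of 3.12 in KO+UNC over WT (SE 0.73) was just past the threshold (edgeR adjusted p = 0.0492, and 0.00520 with the replicate block).

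The LTR ORR1A1 was at 19.9 and 15.2 CPM in WT, 29.2 and 21.4 in UNC, 53.6 and 29.4 in KO and 111 and 91.3 in KO+UNC. The step from KO to KO+UNC left no overlap. Its log2 fold change in the latter over WT was 2.53 (SE 0.45, edgeR adjusted p = 0.0165). ORR1A3-int went from 26.5 and 20.1 CPM in WT through 50.04 and 31.9 in UNC and 92.7 and 53.1 in KO to 180 and 84.7 in KO+UNC. Here the lower library of KO+UNC was within the range of KO. The log2 fold change over WT was 2.51 (SE 0.52, edgeR adjusted p = 0.0307).

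**Figure D2:**
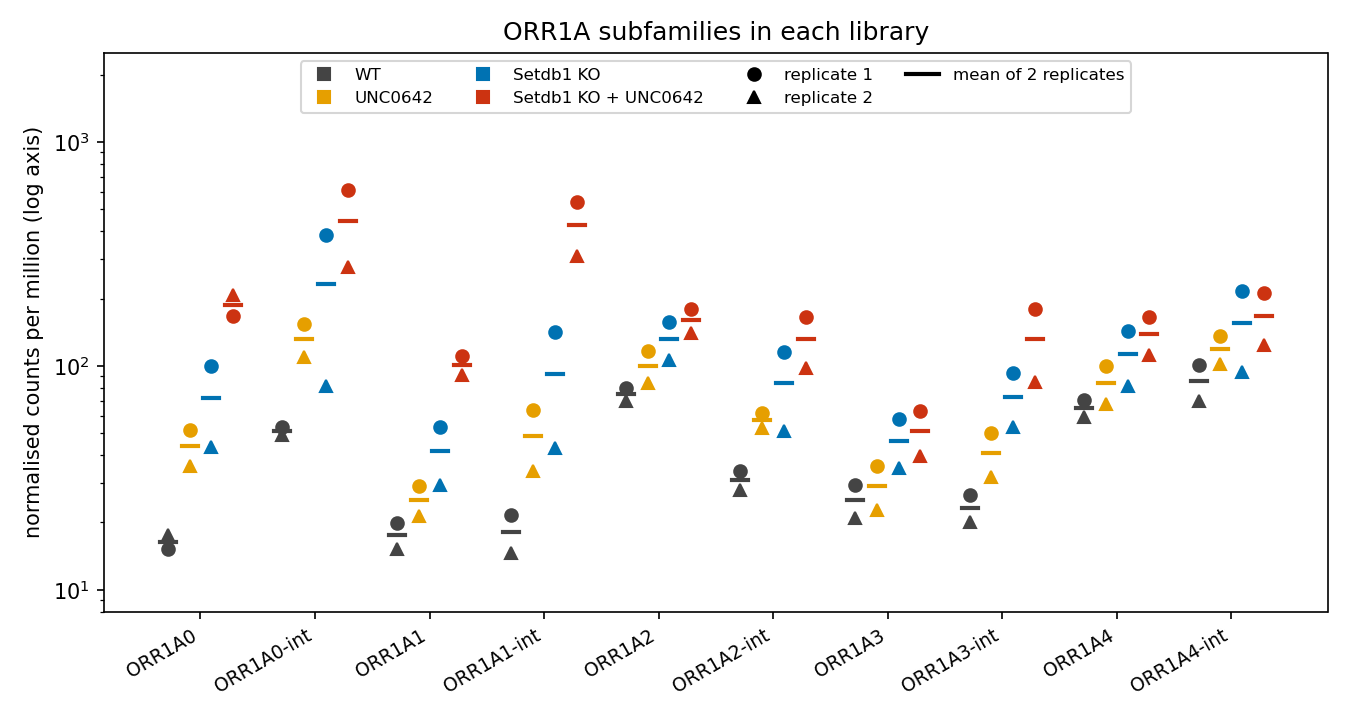
Normalised CPM (log axis) of the 10 ORR1A subfamilies in each library, LTR and internal part side by side, with bars at the mean of 2 replicates. In all 10 both KO+UNC libraries lie above both WT libraries, and ORR1A1-int has the widest step, from 14.7 and 21.5 to 309 and 539.

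The other ORR1A subfamilies did not pass the threshold. ORR1A2-int, at 34.0 and 27.8 CPM in WT and 165 and 98.3 in KO+UNC, had a log2 fold change of 2.09 (SE 0.50, edgeR adjusted p = 0.0501, and 0.00308 with the replicate block). ORR1A2, ORR1A3, ORR1A4 and ORR1A4-int had log2 fold changes of 1.10, 1.02, 1.10 and 0.97, with edgeR adjusted p between 0.184 and 0.366. The median was 2.30 over the 10 ORR1A and 1.04 over the 18 other ORR1 subfamilies tested.

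Among other ORR1 subfamilies, the largest log2 fold changes in KO+UNC over WT were at internal parts with few counts. ORR1F-int was at 2.61 and 1.48 CPM in WT and 13.4 and 6.03 in KO+UNC, a log2 fold change of 2.25 (SE 0.64, edgeR adjusted p = 0.0900). ORR1B2-int was at 3.22 and 3.28 and then 20.9 and 7.35 CPM, a log2 fold change of 2.11 (SE 0.76, edgeR adjusted p = 0.175). For both, the 2 conditions did not overlap but neither passed the threshold. The LTR ORR1D1, among the ORR1 subfamilies with most counts, was at 130 and 83.7 CPM in WT and 232 and 136 in KO+UNC, a log2 fold change of 0.79 (SE 0.50, edgeR adjusted p = 0.475).

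None of the 20 MT subfamilies was called in KO+UNC over WT, beside 12.1% of all subfamilies. A positive log2 fold change was found in 19 (median 0.96), and in 856 of all 932 subfamilies. With the replicate block 8 were called, beside 9.47% of all features and 37.7% of subfamilies. The nearest to a call without the block was MT-int, at 6.44 and 3.25 CPM in WT, 11.8 and 6.55 in UNC, 15.1 and 7.26 in KO and 46.8 and 20.7 in KO+UNC. Both libraries of the last condition exceeded all other 6. Its log2 fold change over WT was 2.81 (SE 0.67, edgeR adjusted p = 0.0527, and 0.000842 with the replicate block).

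MTA is the youngest MT group, and its LTRs are known as oocyte promoters. MTA_Mm-int was at 131 and 96.0 CPM in WT, 219 and 140 in UNC, 321 and 119 in KO and 472 and 238 in KO+UNC. The KO libraries overlapped those of WT, and those of KO+UNC did not. Its log2 fold change of 1.65 in the latter (SE 0.58) had an edgeR adjusted p of 0.169, and 0.00869 with the replicate block. The LTR MTA_Mm, at 100.1 and 78.2 CPM in WT and 235 and 157 in KO+UNC, had a log2 fold change of 1.14 (SE 0.46, edgeR adjusted p = 0.230, and 0.0172 with the block).

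The MTB subfamilies had log2 fold changes of 1.46 (MTB_Mm), 1.51 (MTB_Mm-int), 1.17 (MTB) and 0.94 (MTB-int) in KO+UNC over WT. MTB_Mm had the smallest edgeR adjusted p of these, 0.0864, and was called with the block (0.00500). MTC and MTC-int had 0.55 and 0.47, and MTC overlapped narrowly between the 2 conditions, with 161 and 110 CPM in WT and 235 and 161 in KO+UNC. MTD, the MT subfamily with most counts, was at 264 and 178 and then 453 and 310 CPM. MTEa-int was the single MT subfamily with a negative value, -0.04, at 27.3 and 11.3 CPM in WT and 26.0 and 11.5 in KO+UNC.

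The MLT subfamilies had few counts. None of the 39 tested was called in KO+UNC over WT, beside 3.60% of all features and 12.1% of subfamilies. In 38 the log2 fold change was positive (median 0.90), beside 856 of all 932 subfamilies. With the replicate block 5 were called, beside 9.47% of all features and 37.7% of subfamilies. MLT1F-int had the smallest p: it was at 1.65 and 0.974 CPM in WT, 1.60 and 1.15 in UNC, 3.26 and 2.53 in KO and 4.98 and 8.67 in KO+UNC. Its KO libraries lay above WT and its KO+UNC libraries above KO, while UNC stayed within the range of WT. The log2 fold change over WT was 2.40 (SE 0.64, edgeR adjusted p = 0.0722, and 0.0160 with the block). MLT1H-int, with a log2 fold change of 2.29 (SE 0.93, edgeR adjusted p = 0.235), had no more than 1.66 CPM in any library. The LTRs with most counts, MLT1A0, MLT1B and MLT1D, had log2 fold changes of 1.15, 1.02 and 0.55, and MLT1A1-int, at -0.04, was the single MLT subfamily below 0.

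The medians of the 3 MaLR groups were above that of genes and near that of all subfamilies together, below those of ERVK and ERV1 and above that of Alu. In KO+UNC over WT the median log2 fold change was 0.96 for MT, 1.10 for ORR1 and 0.90 for MLT, beside 1.11 for all 932 subfamilies and -0.06 for genes. The median was 1.27 for ERVL, 1.60 for ERVK, 1.54 for ERV1, 1.05 for L1 and 0.16 for Alu (the B1 SINEs). Positive values were found in 85 of 87 MaLR subfamilies (in all 87 with TMM factors from genes only), beside 856 of 932 subfamilies and 8030 of 16245 features. In 72 of 87 both KO+UNC libraries lay above both WT libraries, which held for 22.3% of all features and 62.0% of subfamilies. When the normalization factors were computed from transposable element subfamilies only, the median log2 fold change moved by -1.05, 40 MaLR subfamilies were positive and 47 negative, and ORR1A1-int alone stayed called (3.46, edgeR adjusted p = 0.0475). ORR1A0 was then at 2.47, ORR1A0-int at 1.94, ORR1A1 at 1.48 and ORR1A3-int at 1.37, with edgeR adjusted p between 0.0626 and 0.0738.

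**Figure D3:**
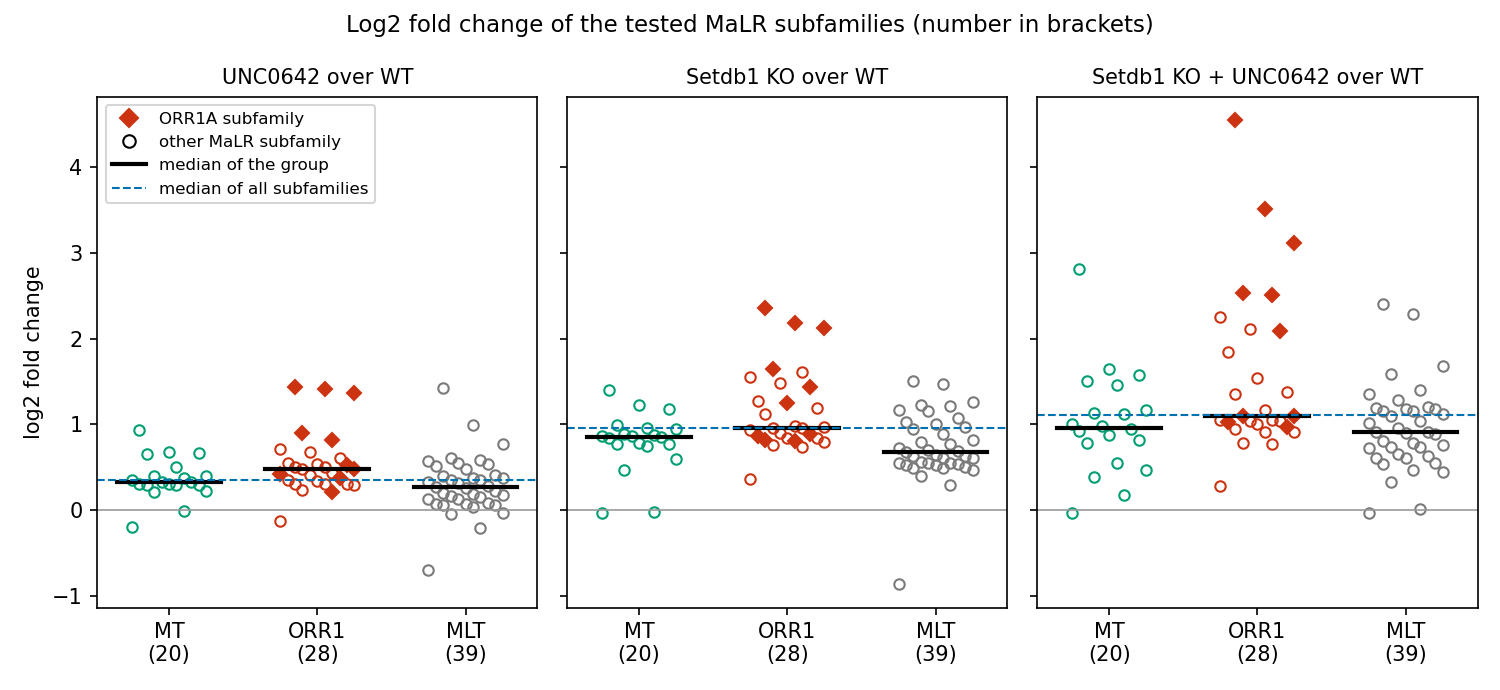
Log2 fold change over WT of the 87 tested MaLR subfamilies, by name group, in UNC, KO and KO+UNC, with ORR1A subfamilies as filled diamonds, group medians as black bars and the median of all 932 subfamilies as a dashed line. Group medians lie near the dashed line in each panel (0.96, 1.10 and 0.90 against 1.11 in the last), and 6 ORR1A subfamilies lie above 2 there.

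In KO no MaLR subfamily was called over WT by edgeR, while 1.11% of all features and 4.94% of subfamilies were called higher and 0.00616% of features lower. At an unadjusted p under 0.05 edgeR had 12 higher (7.07% of all features, 253 of 932 subfamilies) and 0 lower. With the replicate block it had 53 higher at that level (11.5% of all features, 486 of 932 subfamilies). DESeq2 called 3, and no share over all features is given for it. With the block 9 were called, beside 3.77% of all features and 20.0% of subfamilies: ORR1A0, ORR1A1, ORR1A1-int, ORR1A2-int, ORR1A3-int, ORR1B1, ORR1D2-int, MTB_Mm and MTD-int. ORR1A0 had the smallest edgeR adjusted p (0.0951, and 0.0217 with the block), with a log2 fold change of 2.13 (SE 0.49), and ORR1A1-int had 2.35 (SE 0.64, edgeR adjusted p = 0.172, and 0.00625 with the block). The medians were 0.96 for ORR1, 0.85 for MT and 0.68 for MLT, beside 0.96 for all subfamilies, and 1.34 for ORR1A. In 52 of 87 both KO libraries lay above both WT libraries, beside 17.5% of all features and 52.7% of subfamilies. The same change of normalization factors to subfamilies only moved the median by -0.86, which left 35 positive and 52 negative.

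The difference between KO and WT was larger in replicate 1. Without replicate 1 of KO the log2 fold change over WT was 1.25 for ORR1A1-int, 0.67 for ORR1A0-int and 1.39 for ORR1A0, and without replicate 2 it was 2.95, 2.88 and 2.58. The ORR1A median log2 ratio to the WT library of the same number was 1.60 in replicate 1 and 0.81 in replicate 2, and over all 87 MaLR subfamilies it was 0.97 and 0.63.

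In UNC no MaLR subfamily was called over WT by edgeR with or without the block, and of all features 0.00% without and 0.166% with it. At an unadjusted p under 0.05 edgeR had 2 higher (2.96% of all features, 23 of 932 subfamilies) and 0 lower, and DESeq2 had 2 higher. With the block edgeR had 11 higher at that level (5.76% of all features, 110 of 932 subfamilies). The values were positive in 80 of 87, beside 784 of 932 subfamilies and 7804 of 16245 features. Medians were 0.48 for ORR1, 0.32 for MT and 0.27 for MLT beside 0.35 for all subfamilies, and 39 of 87 were positive with factors from subfamilies only. ORR1A1-int, ORR1A0 and ORR1A0-int had log2 fold changes of 1.43, 1.41 and 1.37 (SE 0.62, 0.48 and 0.69, edgeR adjusted p of 0.950 or more). The first was 0.91 without replicate 1 of UNC. In 22 of 87 both UNC libraries lay above both WT libraries, beside 13.7% of all features and 23.2% of subfamilies, and 8 of these are among the 10 ORR1A. These 3 comparisons share the WT libraries, so their values stand side by side and are not independent of each other.

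KO+UNC were also compared with each single treatment. If the labels hold, KO+UNC and KO also differ in days of 4-OHT (2 and 5), which cannot be told apart from the inhibitor. Over KO edgeR called none of the 87 MaLR subfamilies and none of all features (0.00%), and DESeq2 called none of the 87. At an unadjusted p under 0.05 edgeR had 4 MaLR subfamilies higher (2.79% of all features, 24 of 932 subfamilies) and 0 lower. With the block 10 were higher at that level (5.24% of all features, 96 of 932 subfamilies). ORR1A1-int had a log2 fold change of 2.20 (95% interval 0.78 to 3.62, edgeR adjusted p = 0.690) and was the only one called with the block (0.0394, beside 0.123% of all features and 0.215% of subfamilies). It was 3.30 without replicate 1 of KO and 1.60 without replicate 2. ORR1A0 and ORR1A1 had 1.39 and 1.29, MT-int 1.59, and the median over the family was 0.15. Group medians turned negative without replicate 2 of KO (MT -0.18, ORR1 -0.13, MLT -0.17) or replicate 1 of KO+UNC (-0.13, -0.20 and -0.092), and were 0.59, 0.70 and 0.54 without replicate 1 of KO. Over UNC edgeR again called none, beside 1.13% of all features. At an unadjusted p under 0.05 it had 13 higher (6.37% of all features, 212 of 932 subfamilies) and 0 lower. With the block 43 were higher at that level (10.5% of all features, 388 of 932 subfamilies). DESeq2 called 4, with no share over all features given. With the block edgeR called 10 (6 ORR1, 3 MT and 1 MLT, beside 3.79% of all features and 18.5% of subfamilies). Without it ORR1A1-int had the smallest edgeR adjusted p, 0.0654, with a log2 fold change of 3.12.

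A difference between the 2 single treatments was called at no MaLR subfamily by edgeR with or without the block, although 0.529% of all features were higher in KO than in UNC (2.22% with the block) and 0.0123% lower. At an unadjusted p under 0.05 edgeR and DESeq2 had 0 MaLR subfamilies, beside 4.33% of all features and 141 of 932 subfamilies higher in edgeR. With the block edgeR had 18 of 87 higher in KO and 0 lower, beside 7.49% of all features and 272 of 932 subfamilies higher. This comparison was added after the values were seen. ORR1A0 differed by 0.71 on the log2 scale (95% interval -0.34 to 1.77) and ORR1A1-int by 0.92 (-0.45 to 2.30). Both intervals span negative and positive values, so neither the direction nor the size of these differences is settled here. The test of whether both treatments together departed from the sum of their log2 effects called no MaLR subfamily and no feature at all (0.00%). By the labels, the unequal days of 4-OHT enter this test too. At an unadjusted p under 0.05 edgeR and DESeq2 had 0 MaLR subfamilies (0.751% of all features in edgeR). With the block 2 passed at that unadjusted level, ORR1A1 (0.82 on the log2 scale) and ORR1A1-int (0.98), beside 2.33% of all features. The estimate was 0.77 for ORR1A1-int (95% interval -1.17 to 2.71) and -0.03 for ORR1A0 (SE 0.65).

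LTRs and internal parts of the same subfamily name were compared in 30 pairs, with no test. In KO+UNC over WT the internal part had the larger log2 fold change in 9 of 13 ORR1, 4 of 9 MT and 4 of 8 MLT pairs. The gap at ORR1A1, 4.55 against 2.53, was the widest of the 30. ORR1A3 had 2.51 against 1.02 and ORR1A2 2.09 against 1.10. ORR1A0 went the other way, with 3.12 at the internal part and 3.51 at the LTR. In KO over WT the internal part was the higher one in 12 of 13 ORR1 pairs, with a median gap of 0.22, and in 3 of 9 MT pairs.

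**Figure D4:**
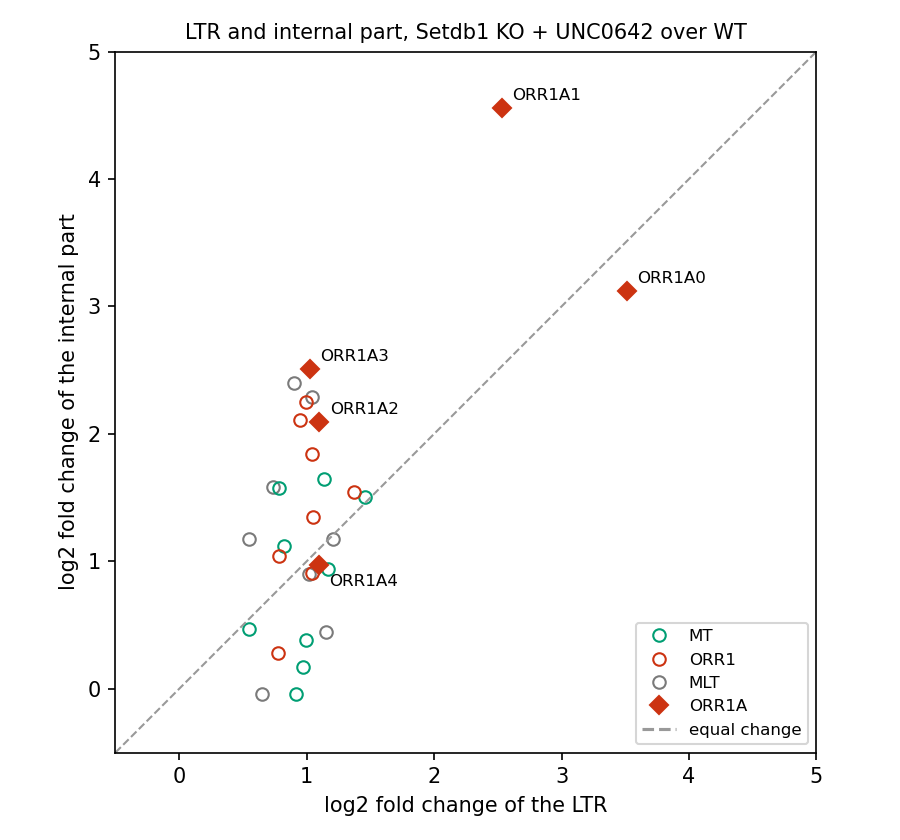
Log2 fold change of the internal part against that of the LTR in KO+UNC over WT, for 30 pairs of the same name, with the line of equal change dashed and ORR1A pairs named. ORR1A1, ORR1A2 and ORR1A3 lie well above the line (gaps of 2.03, 0.99 and 1.48), and ORR1A0 lies below it (-0.39).

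Levels differed between replicates in all conditions: replicate 1 was above replicate 2 in 79 of 87 MaLR subfamilies in WT, 81 in UNC, 86 in KO and 78 in KO+UNC. The median log2 ratio of replicate 1 to replicate 2 was between 0.56 and 0.78 in MaLR, and 0.66 to 0.87 in all subfamilies, while it was between -0.15 and -0.02 in genes. Changes within a replicate number were closer. In KO+UNC over WT the MaLR median was 1.04 in replicate 1 and 0.94 in replicate 2, and that of ORR1A was 2.38 and 1.94. All 28 ORR1 subfamilies tested were higher in both replicates, and 84 and 86 of 87 MaLR subfamilies were higher.

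**Figure D5:**
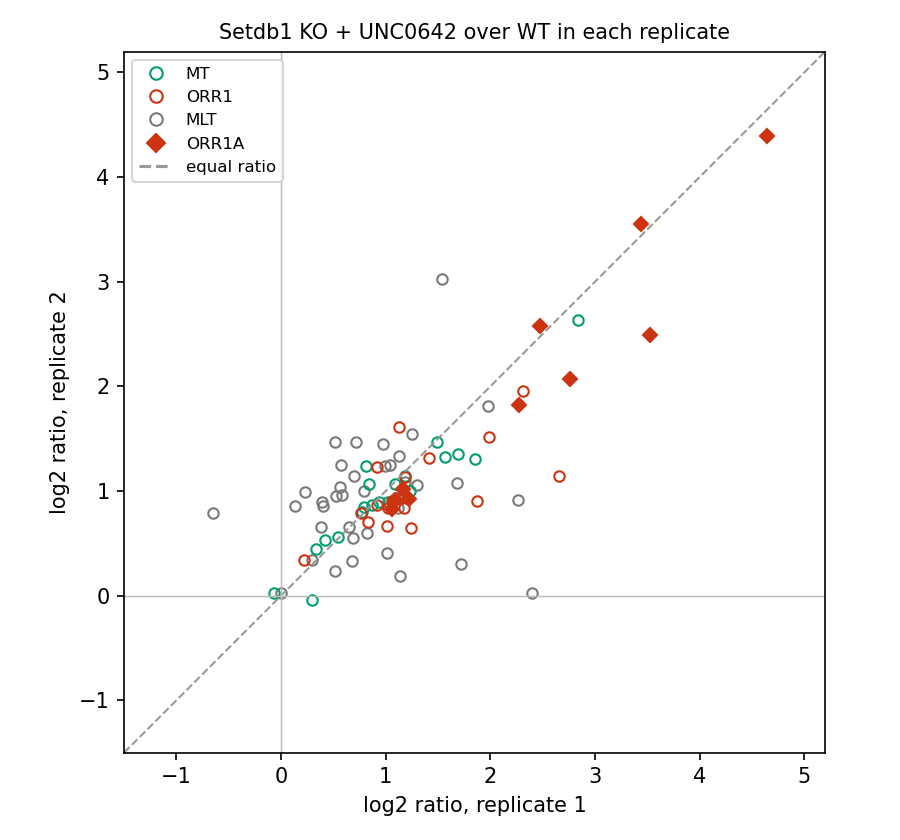
Log2 ratio of KO+UNC to WT in replicate 2 against replicate 1 for the 87 tested MaLR subfamilies, with the line of equal ratio dashed. Medians are 1.04 and 0.94, and the ORR1A subfamilies, filled diamonds, include the highest value of each replicate.

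MERVL, an ERVL element, and its LTR MT2_Mm are active with a set of genes of the two-cell embryo, and were set beside the MaLR elements, which share the WT libraries. MERVL-int was at 97.8 and 270.2 CPM in WT, 5520 and 2234 in UNC, 1916 and 709 in KO and 11090 and 4363 in KO+UNC, and MT2_Mm went from 10.6 and 17.3 in WT to 654 and 256 in the last. Both rose in KO+UNC over WT, by log2 fold changes of 5.39 and 5.02 (edgeR adjusted p = 0.0155 and 0.0123). In the single treatments MERVL-int had estimates of 4.40 with UNC0642 and 2.83 in KO, whereas ORR1A0 had 1.41 and 2.13 and ORR1A1-int 1.43 and 2.35. The difference between the single treatments was not called for any of the 3 (edgeR adjusted p = 1.00 each).

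Of 18 genes of the two-cell embryo tested, edgeR called 17 higher over WT in KO+UNC, 0 in UNC and 2 in KO. Of all features 3.60%, 0.00% and 1.11% were called higher. With the block the counts were 18, 3 and 13, beside 9.47%, 0.166% and 3.77%. All 18 had positive log2 fold changes in each condition, with medians of 5.77, 4.83 and 3.83. Their summed level was 16.2 and 48.6 CPM in WT, 1388 and 483 in UNC, 684 and 269 in KO, and 2542 and 1088 in KO+UNC. Of 24 oocyte genes listed, 8 had enough counts and none passed the test in the comparisons with WT. Their sums were 266 and 247 CPM in WT and 214 and 147 in KO+UNC. Most of each sum was Dicer1, at 216 and 204 CPM in WT and 176 and 65.6 in KO+UNC. In KO+UNC over WT 5 of the 8 had a positive log2 fold change and 3 a negative one (median 0.41). None of 24 H3K9 silencing factors passed in KO+UNC over WT without the block. With it Atf7ip, the partner of SETDB1, was higher, and Setdb1 and Ehmt2 were lower. Of all 16245 features 1622 were higher and 1168 lower at that adjusted p. Markers of other cell types were summed likewise. Primitive endoderm markers were at 28.9 and 114 CPM in WT, 104 and 133 in UNC, 18.0 and 38.3 in KO and 32.0 and 32.6 in KO+UNC. All 8 had a positive log2 fold change in UNC over WT (median 0.78). In KO 7 were negative and 1 positive (median -1.18), and in KO+UNC 6 were negative and 2 positive (median -0.63). Trophectoderm markers were at 33.2 and 31.6 CPM in WT, 22.9 and 18.1 in UNC, 70.9 and 37.1 in KO and 32.7 and 15.6 in KO+UNC. Fibroblast markers were at 5.92 and 18.3 CPM in WT, 4.18 and 17.8 in UNC, 4.40 and 20.7 in KO and 9.65 and 17.5 in KO+UNC. None of the 8, 6 and 5 of these tested passed in KO+UNC over WT without the block. With it Lama1 and Eomes were lower and Lum higher, beside 1168 features lower and 1622 higher of all 16245. The part of the two-cell genes and of these markers in the MaLR values was not tested.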

How the data were processed

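Poly(A) RNA-seq of 8 mESC libraries was used, grouped by the sample labels. The authors trimmed reads (Trim Galore 0.3.7), mapped them to GRCm38 with TopHat2 and counted them with TEtranscripts, which shares reads with several positions among these, so related subfamilies can exchange reads. The deposited counts, 1 value for each gene or subfamily, are not normalized. The repeat annotation release is not given in the sources used here.

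Features kept by filterByExpr (minimum count 10, minimum total 15) were 15313 genes and 932 subfamilies. They were fitted in 1 edgeR 4.0.16 quasi-likelihood model of all 8 libraries (R 4.3.3, TMM factors 0.810 to 1.20, prior count 0.125), with Benjamini-Hochberg adjustment over all of them. Replicate numbers were taken to pair libraries, because replicate deviations over genes correlated in all 6 pairs of conditions (r between 0.285 and 0.663, where genes are not independent replicates). The lowest r over genes was that of WT and KO. Over MaLR subfamilies r was lower, 0.011 for WT and KO, 0.096 for WT and KO+UNC, and at most 0.363 (WT and UNC). The labels say only that replicates are biological, so p-values measure the spread between these libraries. Ratios within a replicate used 0.1 CPM as pseudocount. DESeq2 1.42.0 and other alternatives are given in the closing section. The fits were run on simulated data drawn without a replicate effect, so how the block handles such an effect was not tested.

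Members named are all whose name starts with MTA, MTB, MTC or ORR1A, per name group the 3 with the smallest p in each comparison and the 3 with most counts, and those called. ORR1F-int, ORR1B2-int, MTEa-int and MLT1A1-int, and the subfamilies named as called with the block, were chosen after their values were seen. The sum of ORR1A0 and ORR1A1 was not a planned group either. The members and gene lists were chosen with earlier results of these data known.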

Additional observations from a re-analysis of the deposited data

How the results depend on the processing

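With the replicate number as a block, edgeR called 31 MaLR subfamilies higher in UNC0642-treated Setdb1 KO over WT mESCs (5 without the block, all among the 31), 9 in Setdb1 KO over WT, 10 over UNC0642-treated and 1 over Setdb1 KO mESCs (0 without). In these 4 comparisons DESeq2 with the block, added after the values were seen, called 35, 13, 14 and 4, and further 1 in UNC0642-treated over WT and 2 in Setdb1 KO over UNC0642-treated mESCs. Without the block DESeq2 called 11 (4 libraries: 10) in UNC0642-treated Setdb1 KO over WT, 3 (3) in Setdb1 KO over WT and 4 (4) in UNC0642-treated Setdb1 KO over UNC0642-treated mESCs. The DESeq2 counts have no share over all features or subfamilies beside them, so whether they exceed that share is not known. Setdb1 KO over WT gave 1 call by edgeR on 4 libraries, and UNC0642-treated Setdb1 KO over UNC0642-treated mESCs 1 without an expression filter.

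UNC0642-treated Setdb1 KO over WT mESCs gave 2 calls at a fold above 10, and 1 with TMM factors from subfamilies only or, added later, from MaLR subfamilies only. Leaving out 1 library gave between 0 and 7 calls there: 0 without either WT replicate, where the remaining one is assumed to vary like the other groups. Over UNC0642-treated mESCs it gave 0 to 1 (1 without either Setdb1 KO replicate). The 5 calls were thus lost in full only without a WT library. Scaling by total counts alone moved the median by -0.17 there and gave 5 calls, 4 of them shared. No MaLR subfamily was called lower in any comparison under any alternative run.

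Among the subfamilies named by rule, factors from subfamilies or from MaLR subfamilies turned the sign of MTC (-0.51 and -0.48), MTC-int (-0.58 and -0.55), MTB-int (-0.092 and -0.067), ORR1A3 (-0.055 and -0.021) and ORR1A4-int (-0.115 and -0.079) in UNC0642-treated Setdb1 KO over WT, the only alternatives run that did so there. In Setdb1 KO over WT mESCs they turned MTA_Mm-int (-0.053 and -0.006), MTA_Mm (-0.106 and -0.061), MTB-int (-0.131 and -0.093), MTB_Mm-int (-0.199 and -0.157), MTC (-0.29 and -0.26), MTC-int (-0.44 and -0.40), ORR1A2 (-0.094 and -0.049), ORR1A4 (-0.142 and -0.096) and ORR1A4-int (-0.105 and -0.062), and the first of them ORR1A3 (-0.025), while MTC-int was also at -0.007 without replicate 1 of Setdb1 KO. The interaction could not be fitted with 4 libraries. The smallest libraries, 11702590 and 11897456 counts, are a WT and a UNC0642-treated Setdb1 KO library, and counts thinned to the smallest gave 4 calls.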
